A study of Homo sapiens with 6 samples.

Results

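The ubiquitin-specific proteases were taken as the rows of the deposited gene table whose symbol is USP followed by a number and at most 1 letter. This rule found 51 of 35106 rows. The libraries came from HCT116 cells, an established human colon carcinoma line with the genotype label WT, which was either untreated or given curcumin, the yellow polyphenol of turmeric. Curcumin was applied for 24 h at a dose written as 30 in a unit that reads as micrometres and is taken here as 30 µM. There were 3 untreated and 3 curcumin-treated libraries, and the sources used here name no solvent control for the untreated cells. Nothing in the labels says that the 3 libraries of a group came from separate cultures, so every p-value measures the spread between these libraries, which may be technical. The relative numbers of cells and the RNA content per cell cannot be told apart in such bulk samples.

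Ubiquitin-specific proteases are the largest family of deubiquitinases, the enzymes that take ubiquitin off proteins or trim ubiquitin chains. Most are cysteine proteases built on a shared catalytic fold, and each is steered to its substrates by flanking domains and partner proteins. Through this they decide whether a protein tagged by a ubiquitin ligase goes to the proteasome, is recycled from endosomes, or returns to its untagged state on chromatin. In colon cancer cells the family is known for acting on the ubiquitin ligase MDM2, on MYC, on Wnt and TGF-beta signalling, and on growth factor receptors.

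Library totals ran from 16663567 to 20311774 estimated counts. Levels are given as CPM, the usual depth-scaled count, after multiplying library sizes by TMM factors, a method that assumes most genes do not change. Untreated libraries had factors of 1.30 to 1.34 and treated ones of 0.716 to 0.804, so each level depends on what the rest of its library did. Of 8 colon epithelial markers, 4 rose (KRT8, KRT18, KRT19 and EPCAM) and 1 fell (CDX2, from 25.4 to 9.64 CPM on average). Without TMM factors, EPCAM, KRT18 and KRT19 did not differ at an adjusted p under 0.05. The 8 summed to 3790 to 4488 CPM without and 7217 to 8463 CPM with curcumin, most of it from keratin genes. Transcripts of the crypt marker LGR5 and the brush border gene VIL1 were nearly absent, at means of at most 0.392 and 0.525 CPM. Of 8 markers of other cell types, 4 rose (CD68, PECAM1, VIM and ACTA2), the leukocyte marker PTPRC reached at most a mean of 0.289 CPM and CD3E was listed at 0. Without TMM factors, VIM and ACTA2 did not differ at an adjusted p under 0.05. COL1A1, the highest of these 8 in untreated cells, had 28.6 CPM without and 22.9 CPM with curcumin and was not called. In each set of 8, the 4 rises stand beside 27.2% of all genes tested that rose. The 8 markers of other cell types summed to 36.0 to 43.0 CPM without and 55.8 to 111 CPM with curcumin, and their part in the results was not tested.

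Of the 51 genes, 43 passed the filter on low counts and were tested. After curcumin 6 were higher and 20 lower at an adjusted p under 0.05 (edgeR's quasi-likelihood test over 13718 genes, Benjamini-Hochberg adjustment). That is 14% higher and 46.5% lower, against 27.2% and 28.9% of all genes tested. Called in either direction were 60.5% of the tested proteases and 56.1% of all genes, so the family was called about as often as other genes. The median log2 fold change, curcumin over untreated, was −0.30 in the family and −0.04 over all genes tested. The genes that rose were USP18, USP39, USP11, USP38, USP16 and USP48. The largest falls were those of USP27X, USP46, USP34, USP54 and USP13, the 5 genes that fell at least 2-fold. Rises of that size were those of USP18, USP39 and USP11. Calls with at least a 2-fold change made up 16.4% of all genes in the higher and 17.4% in the lower direction. The 3 treated libraries lay above all untreated ones for 7 of the 43 genes and below them for 21, against 30.9% and 33.1% of all genes tested.

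**Figure D1:**
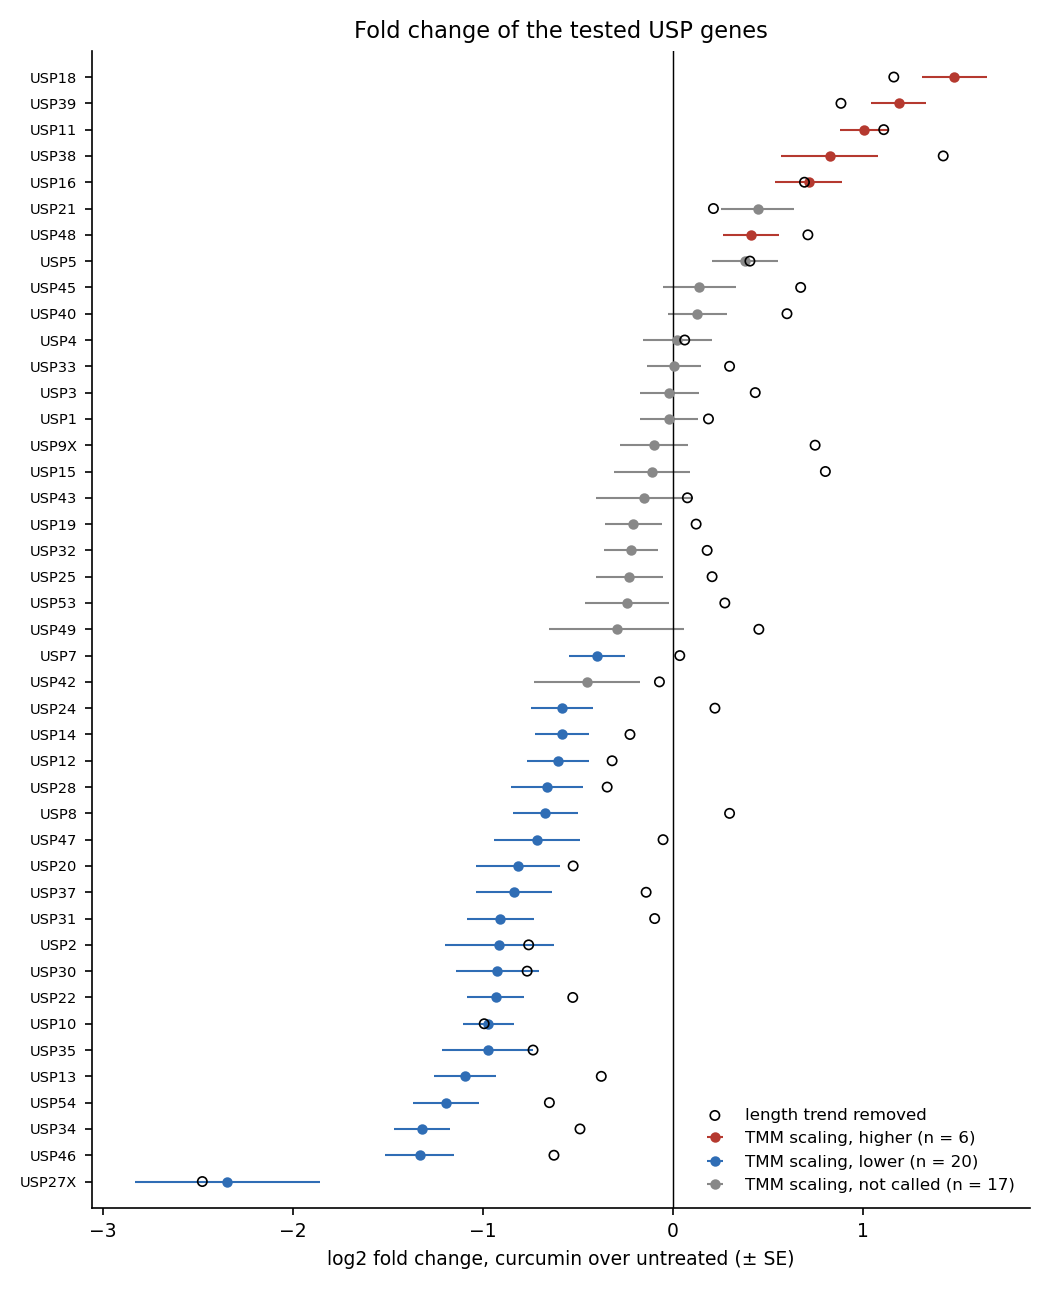
Log2 fold change, curcumin over untreated, of the 43 tested ubiquitin-specific proteases, ordered by size; filled points with bars give the estimate ± SE from 3 against 3 libraries and open points the estimate with the transcript length trend removed. The 6 genes called higher run from 0.41 to 1.48 and the 20 called lower from −2.34 to −0.40, and most open points lie to the right of the filled ones.

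The rises depended on the scaling. With library size alone as the scale, the median over all genes moved to −0.84 and that of the family to −1.12, and 1 of these proteases was called higher and 35 lower (9.62% and 56.5% of all genes, 66.1% in either direction). The gene still called higher was USP18. Shares within the family and ratios between its members, given further on, need no scaling between libraries. Both still carry the trend with transcript length described next.

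Fold change was lower for longer transcripts across all genes, and these proteases have long transcripts. Their longest annotated transcripts had a median of 5155 bases, against 3386 bases over 13196 tested protein-coding genes. Spearman's rho between log2 fold change and length was −0.31 over the 43 proteases and −0.45 over the protein-coding genes, a description only, since all points share the same libraries. Split into 5 equal groups by length, the genes of 5738 bases and more had a median log2 fold change of −0.72 over all genes and −0.67 over the 15 proteases among them. Of these 15, 9 were called lower and 1 higher, against 55.7% and 7.76% of all genes of that length. In the group of 3998 to 5737 bases, the medians were −0.35 and −0.31, the latter over 16 proteases. In these 2 groups, which hold 31 of the 43 genes, the proteases thus lay near the median of other genes of their length. The family's 4 genes between 1954 and 2846 bases had a median of 0.82, against 0.27.

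**Figure D2:**
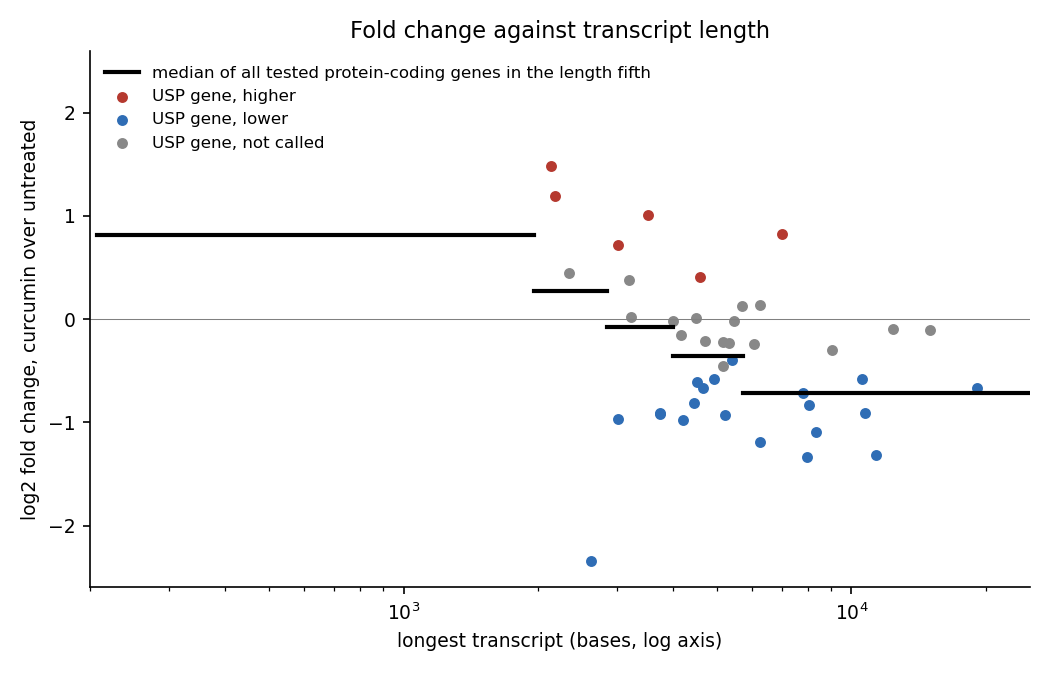
Log2 fold change, curcumin over untreated, against the longest annotated transcript in bases (log axis) for the 43 tested proteases; black bars are medians of all tested protein-coding genes in each of 5 equal groups by length, the last one drawn only to the axis limit. The black bars step down from 0.81 to −0.72, and the 15 longest proteases, with a median of −0.67, scatter about the last bar.

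With each library's trend with length removed, 11 of the 43 were higher and 9 lower (25.2% and 22.7% of all genes under that setting, 47.9% in either direction). All 6 rises were called under it. The 9 falls were those of USP22, USP54, USP10, USP30, USP27X, USP34, USP2, USP35 and USP46. The other 11 called lower before were not called, among them USP7, USP13, USP14 and USP28, and USP3, USP9X, USP15, USP40 and USP45 were called higher. When the median over a gene's protein-coding transcripts stood in for the longest one, 8 were higher and 17 lower (26.6% and 25.8% of all genes, 52.3% in either direction). Of the 11 falls lost to the longest transcript, those of USP7, USP8, USP12, USP13, USP14, USP28 and USP31 were called with the median length, while those of USP20, USP24, USP37 and USP47 were not called under either measure. Among the 5 added rises, only that of USP9X was called under both measures of length.

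Summed over the 51 genes, the family took 0.302, 0.333 and 0.325% of counts in untreated replicates 1, 2 and 3 and 0.167, 0.156 and 0.157% in treated replicates 1, 2 and 3. The groups did not overlap (exact two-sided permutation test, p = 0.1, the lowest value this design can give). On the TMM scale the same sum was 2421 ± 83.8 CPM without and 2119 ± 67.7 CPM with curcumin (SD, n = 3). The make-up of that sum differed between the groups. USP22 held 17.7 ± 0.826% of the family's counts in untreated and 10.6 ± 1.28% in treated cells. USP11 went from 4.43 ± 0.295% to 10.1 ± 0.266% and USP39 from 3.37 ± 0.401% to 8.79 ± 0.730%, again with no overlap between the groups. Per kilobase of the longest transcript, USP22 was the most abundant in untreated cells (82.0 CPM per kilobase), followed by USP10 (53.1) and USP5 (38.8). In treated cells the order was USP39 (85.4 CPM per kilobase), USP11 (61.1), USP5 (50.5) and USP22 (43.0). This order rests on the longest transcript. Without division by length, USP22 was still the highest in treated cells, at 224.5 CPM, against 214.9 for USP11 and 185.9 for USP39. The median transcript length, 573 bases for USP22 and 2033.5 for USP39, was not used for the order.

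**Figure D3:**
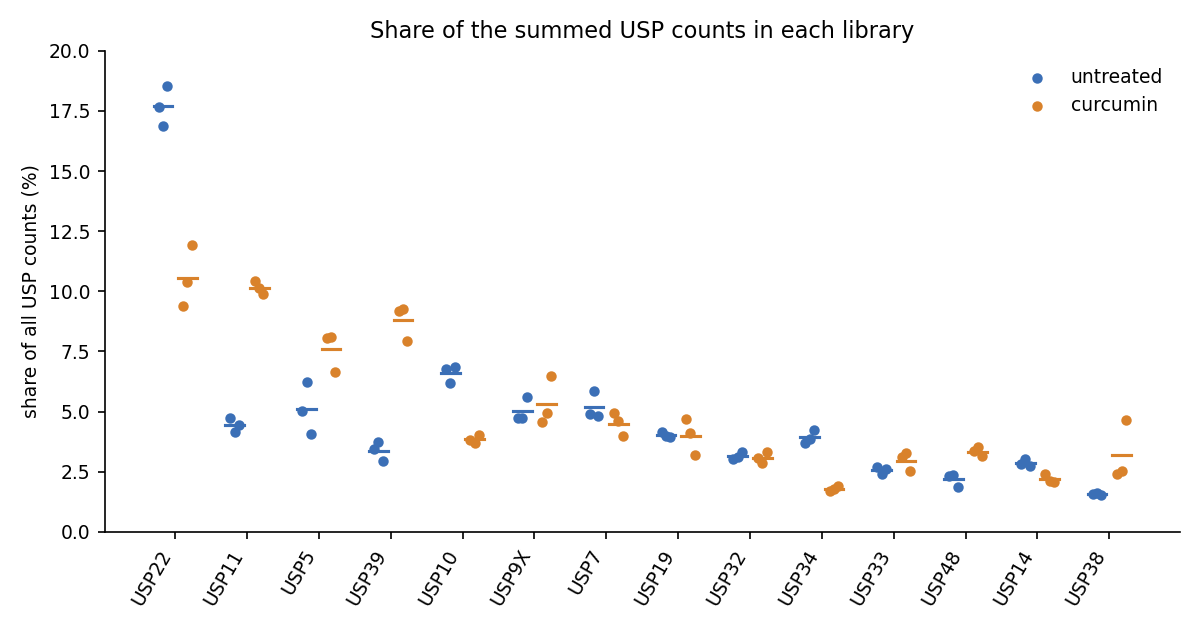
Share of the family's summed counts, in percent, held by the 14 most abundant proteases in each of the 3 untreated (blue) and 3 curcumin-treated (orange) libraries; short lines are group means. The mean for USP22 is 17.7% without and 10.6% with curcumin, while that for USP11 is 4.43 and 10.1% and that for USP39 is 3.37 and 8.79%, with no overlap between the groups for USP22, USP11 or USP39.

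Promoter sequences are printed for USP22, the most abundant protease of untreated cells, and USP34, both of which fell, and for USP11 and USP16, which rose, chosen with their values known to show how unlike promoters of the family can be. The other rising genes with a listed promoter, USP38 and USP39, hold the GC box as USP22 and USP34 do. Each is the 250 bases before the start listed by RefSeq (GRCh38.p14), read 5′ to 3′ on the gene's strand. The gene positions given further on are from GENCODE, and the 2 sources differ in their starts. By GENCODE, USP22 begins at 21043760 and USP11 at 47232690, so both stretches lie wholly inside the gene. That of USP16 reaches past the gene's start at 29024629, and that of USP34 lies outside the gene. The stretches are thus upstream of the RefSeq start only. Capitals mark matches, on either strand, to the 6 motifs searched.
USP22 (chr17:21043012-21043261, minus strand): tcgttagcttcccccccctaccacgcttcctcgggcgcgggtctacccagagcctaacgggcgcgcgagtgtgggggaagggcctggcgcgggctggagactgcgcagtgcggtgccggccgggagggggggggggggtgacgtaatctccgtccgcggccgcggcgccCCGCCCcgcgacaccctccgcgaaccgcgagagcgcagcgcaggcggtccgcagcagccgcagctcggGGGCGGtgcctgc
USP34 (chr2:61471088-61471337, minus strand): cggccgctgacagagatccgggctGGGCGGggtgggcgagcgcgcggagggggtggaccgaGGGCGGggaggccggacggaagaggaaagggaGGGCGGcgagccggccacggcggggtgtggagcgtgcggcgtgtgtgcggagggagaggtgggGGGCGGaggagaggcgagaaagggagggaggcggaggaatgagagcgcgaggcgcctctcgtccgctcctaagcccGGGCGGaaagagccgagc
USP11 (chrX:47232759-47233008, plus strand): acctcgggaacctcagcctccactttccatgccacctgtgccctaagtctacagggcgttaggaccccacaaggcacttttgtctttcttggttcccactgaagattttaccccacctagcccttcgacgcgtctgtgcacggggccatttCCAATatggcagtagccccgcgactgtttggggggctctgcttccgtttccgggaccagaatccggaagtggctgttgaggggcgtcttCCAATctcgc
USP16 (chr21:29024418-29024667, plus strand): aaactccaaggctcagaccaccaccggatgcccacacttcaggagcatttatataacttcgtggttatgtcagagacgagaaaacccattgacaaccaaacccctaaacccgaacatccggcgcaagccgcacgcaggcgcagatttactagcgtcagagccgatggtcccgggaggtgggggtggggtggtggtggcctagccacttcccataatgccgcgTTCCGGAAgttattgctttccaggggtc

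The GC content of these 4 stretches was 76.8% for USP22, 74.8% for USP34, 57.6% for USP11 and 56.0% for USP16. The motifs were the GC box GGGCGG, the CCAAT box, the heat shock element pairs GAANNTTC and TTCNNGAA, the antioxidant response core TGACNNNGC and the cyclic AMP response element TGACGTCA. USP34 had 5 and USP22 had 2 GC boxes, USP11 had 2 CCAAT boxes, and the match in USP16 was to TTCNNGAA. Windows reaching from 250 bases before to 50 bases past the start were listed for 38 of these genes, and the first one listed for each gene was searched. The GC box was found in 30 of the 38 (78.9%), against 44.6% of 27305 genes with such a window, noncoding ones included. It was found in 13 of 17 genes that fell, 2 of 4 that rose and 14 of 14 tested genes without a call. CCAAT was found in 10 of the 38 (26.3%, against 35.7%) and TGACNNNGC in 4 (10.5%, against 13.6%). GAANNTTC and TGACGTCA had no match in these windows (6.87% and 1.98% of all), and TTCNNGAA matched in USP16 alone (7.84% of all). A match is a description of letters and says nothing of a factor's binding.

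In the role sets that follow, each count stands beside the 27.2% of all genes that rose and the 28.9% that fell, and with at most 7 tested genes a set it describes that set alone. Among proteases that act on histones, 2 of the 6 tested fell and 1 rose. USP22 (ENSG00000124422, GRCh38 chromosome 17, 20999593 to 21043760, 13 exons), which removes ubiquitin from histone H2B in the SAGA coactivator complex, had 411, 419 and 454 CPM in untreated replicates 1 to 3 and 195, 216 and 262 CPM in treated ones. All treated libraries lay below all untreated ones (log2 fold change −0.93 ± 0.15 SE, adjusted p = 0.000527), and it was called lower in 17 of 17 alternatives that keep the same threshold. USP27X, a single-exon gene on chromosome X that shares the SAGA module's adaptors with USP22, had 152, 103 and 119 counts in untreated and 6, 10 and 21 in treated libraries. This gave 4.89 ± 0.785 and 0.961 ± 0.614 CPM (−2.34 ± 0.49, adjusted p = 0.00235), the largest fall in the family and the only tested member averaging under 5 CPM. The ratio of USP22 to USP27X counts ran from 71.3 to 99.0 in untreated and from 160 to 435 in treated libraries. The third member of this group, USP51, was listed at 0 in all libraries.

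USP16, which takes ubiquitin off histone H2A, had 24.6, 28.1 and 19.8 CPM in untreated and 42.8, 40.6 and 35.6 CPM in treated libraries. The groups did not overlap (0.71 ± 0.18, adjusted p = 0.00633), but with library size alone the fold change was −0.09 (adjusted p = 0.72). USP3 and USP21, which also act on H2A, were not called. USP3 had 53.5 ± 5.52 and 52.8 ± 5.80 CPM, and USP21 had 13.9 ± 1.495 and 18.9 ± 2.603 CPM (adjusted p = 0.0704, and 0.0492 with median-of-ratios scaling). USP49, an H2B protease, had 12.3, 9.99 and 14.01 CPM in untreated and 4.41, 12.5 and 12.7 CPM in treated libraries, curcumin replicate 1 standing below the rest.

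**Figure D4:**
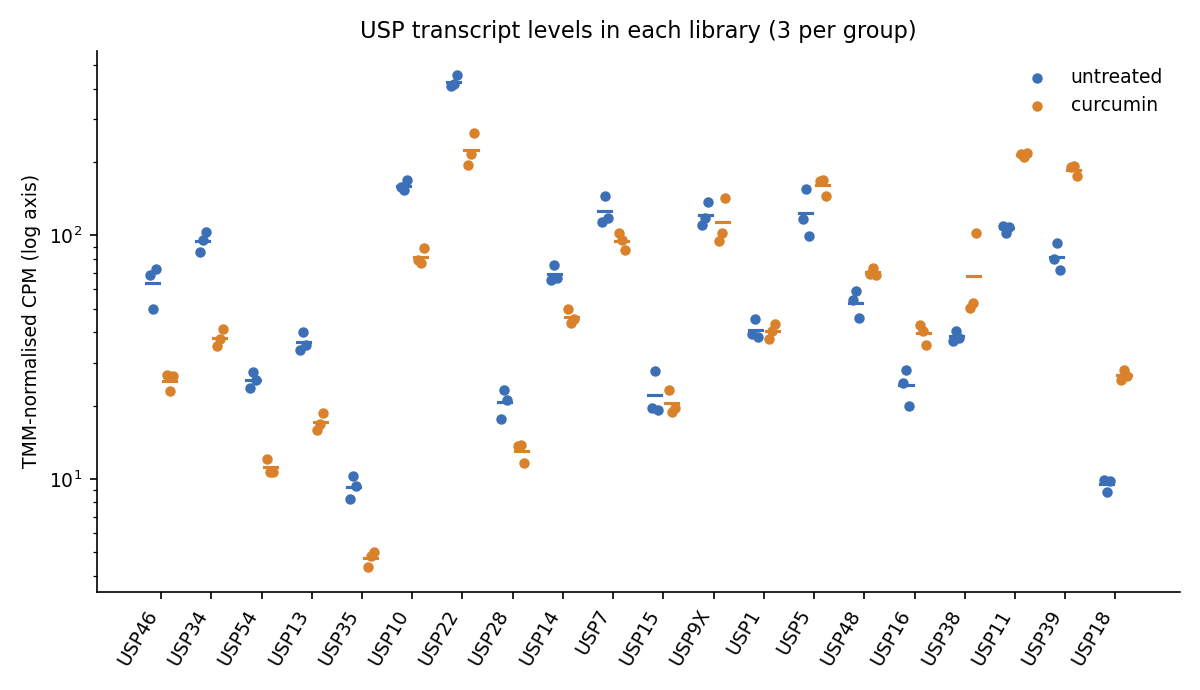
TMM-normalised CPM (log axis) of 20 proteases in each of the 3 untreated (blue) and 3 curcumin-treated (orange) libraries, ordered from the lowest to the highest fold change; short lines are group means. The groups are apart for USP46 through USP7 on the left and for USP48 through USP18 on the right, they overlap for USP15, USP9X, USP1 and USP5 between them, and curcumin replicate 3 of USP38 stands at 102 CPM above the other treated libraries.

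Of 6 proteases tied to DNA damage responses or to the activator UAF1, 3 fell and 2 rose. USP46 (chromosome 4, 52590972 to 52659335), which with its close relative USP12 is switched on by the WD-repeat protein UAF1, had 68.8, 49.6 and 72.9 CPM in untreated and 26.6, 22.9 and 26.5 CPM in treated libraries. No treated library reached the untreated range (−1.33 ± 0.18, adjusted p = 0.000207). USP12 fell from 36.1 ± 2.73 to 23.7 ± 2.80 CPM (−0.61 ± 0.16, adjusted p = 0.00973), not called after correction for the longest transcript (adjusted p = 0.127) but called with the median length (−0.95, adjusted p = 0.000966). USP1, the UAF1-dependent enzyme for FANCD2 and PCNA, had 39.4, 45.2 and 38.1 CPM in untreated and 37.5, 40.3 and 43.3 CPM in treated libraries, which overlapped (−0.02 ± 0.15, adjusted p = 0.924).

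USP11 (ENSG00000102226, chromosome X, 47232690 to 47248328, 21 exons), known for a role in repair by homologous recombination, had 110, 103 and 108 CPM in untreated and 217, 211 and 217 CPM in treated libraries. This difference had the smallest standard error in the family (1.01 ± 0.13, adjusted p = 0.000117), called in 16 of 17 alternatives and not with library size alone (0.20, adjusted p = 0.224). Its counts themselves were nearly level, at 2896, 2496 and 2756 in untreated and 2897, 2655 and 2780 in treated libraries, while the family's summed counts went from 60411 to 62294 down to 26241 to 28110. USP48, which trims ubiquitin that BRCA1 places on histone H2A, rose from 53.01 ± 6.68 to 70.5 ± 2.33 CPM (0.41 ± 0.15, adjusted p = 0.0362). That call was lost in 7 of 17 alternatives, 4 of which left out 1 library, namely untreated replicate 1 (adjusted p = 0.0963) or 3 (0.143) or treated replicate 1 (0.0747) or 2 (0.13), and library size alone gave −0.39. USP28, which stabilises MYC, had 17.6, 23.2 and 21.2 CPM in untreated and 13.7, 13.8 and 11.6 CPM in treated libraries (−0.66 ± 0.19, adjusted p = 0.0133). It was not called after correction for the longest transcript (−0.34, adjusted p = 0.176) and was called with the median length (−0.99, adjusted p = 0.00198).

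All 4 proteases of the set that includes those acting on MDM2 had negative fold changes, and 3 were called. USP10 (ENSG00000103194, chromosome 16, 84699978 to 84779922, 14 exons), which binds the stress granule protein G3BP1, had 157, 154 and 168 CPM in untreated and 79.3, 76.7 and 88.9 CPM in treated libraries. The gap exceeded the spread within either group (−0.97 ± 0.13, adjusted p = 0.000205). Its transcript is short for the family at 3009 bases, and with the length trend removed the fall was −0.99. USP2, which acts on MDM2 and cyclin D1, fell from 8.48 ± 0.679 to 4.51 ± 1.31 CPM (−0.91 ± 0.29, adjusted p = 0.0203), without a call when untreated replicate 3 (adjusted p = 0.068) or curcumin replicate 1 (0.0525) was left out. USP7, a protease of MDM2, had 114, 145 and 118 CPM in untreated and 103, 95.8 and 87.2 CPM in treated libraries. This small difference was called (−0.40 ± 0.15, adjusted p = 0.0412) but in only 9 of 17 alternatives. It was lost without untreated replicate 2 (adjusted p = 0.103) or 3 (0.0507), or without treated replicate 1 (0.057), 2 (0.105) or 3 (0.0855), and the fold change was 0.04 with the trend in the longest transcript removed. With the median transcript length in its place, the fall of USP7 was −0.76 (adjusted p = 0.00245). USP42 had 25.2, 27.9 and 28.6 CPM in untreated and 13.6, 15.6 and 30.6 CPM in treated libraries. Curcumin replicate 3 lay above all untreated libraries, and without it the gene was called lower (−0.90, adjusted p = 0.00168).

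Of 3 proteases of the proteasome and of free ubiquitin chains, 2 fell and 1 was not called. USP14, which docks on the proteasome cap and strips substrates of ubiquitin, had 65.7, 75.6 and 67.0 CPM in untreated and 49.8, 43.8 and 45.2 CPM in treated libraries (−0.58 ± 0.14, adjusted p = 0.00565). The groups were apart, though the call was lost after correction for the longest transcript (−0.22, adjusted p = 0.243) and not for the median length (−0.65, adjusted p = 0.00439). USP5, which breaks down unanchored ubiquitin chains, had 117, 154 and 99.5 CPM in untreated and 168, 169 and 146 CPM in treated libraries. Untreated replicate 2 overlapped the treated range (0.38 ± 0.18, adjusted p = 0.0895), and without it USP5 was called higher (0.56, adjusted p = 0.0131), as it was with the replicate number as a block (adjusted p = 0.0488) and after correction for median transcript length (0.68, adjusted p = 0.0138). Its paralog USP13 had 33.9, 40.2 and 35.6 CPM in untreated and 15.9, 16.8 and 18.7 CPM in treated libraries (−1.09 ± 0.16, adjusted p = 0.000329), which was −0.38 (adjusted p = 0.0791) after correction for the longest transcript and −0.88 (adjusted p = 0.00123) for the median length.

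In Wnt, TGF-beta and receptor traffic, 2 of 5 tested genes fell and none rose under TMM scaling. USP34 (ENSG00000115464, chromosome 2, 61187463 to 61470769, 80 exons), a giant protease that acts on axin, had 85.7, 96.1 and 103 CPM in untreated and 35.2, 37.5 and 41.4 CPM in treated libraries. It had the smallest adjusted p of the family (−1.32 ± 0.15, adjusted p = 6.36e-05). The fall was −0.49 (adjusted p = 0.0138) after correction for the longest transcript and −0.94 (adjusted p = 0.000359) for the median length. USP8, which frees receptors such as that of EGF from ubiquitin on endosomes, fell from 51.5 ± 3.11 to 32.3 ± 5.89 CPM (−0.67 ± 0.17, adjusted p = 0.00751). Its longest annotated transcript, 19026 bases, is the longest of the family, and with the trend in that length removed the fold change was 0.30 (adjusted p = 0.32), against −0.80 (adjusted p = 0.00323) with the median transcript length.

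USP9X, which stabilises MCL1 among other proteins, had 110, 118 and 137 CPM in untreated and 95.1, 103 and 142 CPM in treated libraries. Curcumin replicate 3 was the highest of the 6 libraries (−0.10 ± 0.18, adjusted p = 0.655). It was called higher with the length trend removed (0.75, adjusted p = 0.00118) and lower with library size alone (−0.92, adjusted p = 0.000606). USP15, a protease of SMAD signalling, had 19.5, 27.6 and 19.1 CPM in untreated and 23.2, 18.8 and 19.5 CPM in treated libraries, which overlapped (−0.11 ± 0.20, adjusted p = 0.67). USP4, its paralog, had 24.8 ± 2.82 and 25.3 ± 3.94 CPM.

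On organelle membranes, 2 of 5 genes fell. USP30, which opposes parkin on the outer mitochondrial membrane, fell from 13.1 ± 1.10 to 6.91 ± 1.07 CPM (−0.92 ± 0.22, adjusted p = 0.00485), also with the length trend removed (−0.77, adjusted p = 0.0138). USP20 fell from 26.9 ± 3.55 to 15.3 ± 3.88 CPM (−0.81 ± 0.22, adjusted p = 0.0102), and was not called after correction for the longest transcript or the median length (adjusted p = 0.0831 and 0.345). Its paralog USP33, which like USP20 acts on adrenergic receptors, had 62.3 ± 1.98 and 62.6 ± 6.54 CPM. The membrane-anchored USP19 of the endoplasmic reticulum had 96.9, 99.0 and 97.1 CPM in untreated and 97.6, 85.6 and 70.6 CPM in treated libraries (adjusted p = 0.266). USP32 had 76.2 ± 5.47 and 65.4 ± 6.67 CPM (adjusted p = 0.218).

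The largest rise was that of USP18 (ENSG00000184979, chromosome 22, 18149899 to 18177397, 11 exons), an interferon-induced protease that removes the ubiquitin-like protein ISG15. It had 9.90, 8.80 and 9.84 CPM in untreated and 25.4, 27.9 and 26.4 CPM in treated libraries. All treated libraries stood far above the untreated ones (1.48 ± 0.17, adjusted p = 7.95e-05), and the rise was called in 17 of 17 alternatives, library size alone included (0.68, adjusted p = 0.0081). Its near-identical relative USP41, elsewhere on chromosome 22, had 3 counts in curcumin replicate 3 and 0 in the other 5 libraries. How reads were shared between such copies is not given in the sources used here, so both values are uncertain.

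The second largest rise was that of USP39 (ENSG00000168883, chromosome 2, 85602856 to 85649282, 13 exons), a splicing factor of the tri-snRNP that has lost the catalytic residues. It had 79.9, 92.7 and 72.0 CPM in untreated and 190, 193 and 175 CPM in treated libraries. The groups were well apart (1.19 ± 0.14, adjusted p = 0.000102), and the call was lost only with library size alone (0.39, adjusted p = 0.0526) among 17 alternatives. USP54 and USP53 are paralogs long described as inactive. USP54 had 23.5, 27.6 and 25.5 CPM in untreated and 12.1, 10.7 and 10.6 CPM in treated libraries (−1.19 ± 0.17, adjusted p = 0.000304). USP53 had 29.3, 20.3 and 32.6 CPM in untreated and 20.6, 20.5 and 28.5 CPM in treated libraries, which overlapped (adjusted p = 0.376).

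In the set named for the cell cycle and genome upkeep, the 3 tested genes fell, and none of them was called with the length trend removed. USP37, which acts on cyclin A, fell from 27.6 ± 3.84 to 15.4 ± 2.88 CPM (−0.83 ± 0.20, adjusted p = 0.00497). USP24 fell from 58.5 ± 8.73 to 39.0 ± 3.26 CPM (−0.58 ± 0.16, adjusted p = 0.0119), a call lost without curcumin replicate 2 (adjusted p = 0.0558). USP47, a relative of USP7 that acts on DNA polymerase beta, fell from 23.4 ± 2.25 to 14.3 ± 4.31 CPM (−0.71 ± 0.23, adjusted p = 0.0217). The call was lost when untreated replicate 1 (adjusted p = 0.0732) or 2 (0.0536), or treated replicate 1 (0.0626) or 2 (0.0836), was left out.

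Of 7 tested genes in no such set, 2 fell and 1 rose. USP35 had 8.23, 10.3 and 9.33 CPM in untreated and 4.34, 4.84 and 5.00 CPM in treated libraries (−0.97 ± 0.24, adjusted p = 0.00594). Its paralog USP38 had 37.0, 40.6 and 38.0 CPM in untreated and 50.4, 52.5 and 102 CPM in treated libraries (0.83 ± 0.26, adjusted p = 0.0186). Without curcumin replicate 3 the rise was 0.42 (adjusted p = 0.0265). The call was lost without untreated replicate 1 (adjusted p = 0.068) or 3 (0.0571), and the fold change was 0.00 with library size alone. USP31 fell from 30.9 ± 4.44 to 16.5 ± 1.16 CPM (−0.91 ± 0.18, adjusted p = 0.00162), with −0.10 (adjusted p = 0.662) after correction for its longest transcript of 10699 bases and −0.86 (adjusted p = 0.00228) for its median length. USP25, USP40, USP43 and USP45 had fold changes from −0.23 to 0.14 and were not called.

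Counts of relatives within the family were set against each other as ratios, which need no scaling between libraries but still carry the trend with transcript length. The ratio of USP5 to USP13 was 3.36 ± 0.527 in untreated and 9.47 ± 1.48 in treated libraries. USP11 to USP4 was 4.35 ± 0.648 and 8.64 ± 1.41, and USP11 to USP15 was 5.01 ± 1.12 and 10.6 ± 1.06. The longest transcript of USP15 is far longer than that of USP11 (14950 against 3515 bases), while its median transcript is shorter (795 against 2207.5 bases). The log2 fold changes of USP11 and USP15, 1.01 and −0.11, were 1.11 and 0.80 with the trend in the longest transcript removed. With the trend in median length removed, they were 1.07 and −0.48. USP38 to USP35 was 4.17 ± 0.290 and 14.3 ± 5.31, the highest value, 20.4, lying in curcumin replicate 3. USP53 to USP54 was 1.09 ± 0.303 and 2.10 ± 0.515, and USP33 to USP20 was 2.34 ± 0.239 and 4.23 ± 0.781. In all, 12 pairs were compared, and a pair whose ratios did not overlap between the groups, as for those above, reached p = 0.1 (two-sided exact permutation test, the smallest possible, adjusted p = 0.109 over the 12 pairs). No share over other pairs of genes was computed, so the number of such pairs is not read as a result. The ratios overlapped for USP7 to USP47, at 5.38 ± 0.700 and 7.12 ± 2.23 (exact permutation p = 0.4, adjusted p = 0.4).

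The 8 genes that failed the filter averaged at most 0.476 CPM. USP6, a hominoid gene whose protease part derives from USP32, had 7, 2 and 2 counts in untreated and 3, 15 and 13 in treated libraries, which overlapped. USP44, a protease of the mitotic checkpoint, had 0, 1 and 0 counts in untreated and 4, 2 and 11 in treated libraries. USP26 had 3, 0 and 1 counts in untreated libraries and 0 in treated ones, and USP50 had 1 count in each of 2 treated libraries. USP29 and USP51 were listed at 0 throughout. A count of 0 allows up to 3 counts, that is 0.148 to 0.180 CPM of the library total before TMM scaling, and covers counting error only. Values of the Y-linked USP9Y are not given. One further protease stands in the table under a clone name, AC022966.1, while its identifier ENSG00000055483 is that of USP36 in GENCODE 29, so the symbol rule left it out. This nucleolar protease had 54.0, 54.6 and 63.4 CPM in untreated and 53.1, 52.1 and 66.3 CPM in treated libraries, which overlapped (0.00 ± 0.16, adjusted p = 0.983).

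Of 34 tested deubiquitinases of other classes, 11 rose and 11 fell, 32.4% in each direction, near the 27.2% and 28.9% of all genes, with a median log2 fold change of −0.17. With at least a 2-fold change, 2 rose and 9 fell. MPND and JOSD2 rose from 15.6 ± 2.22 to 38.3 ± 3.01 and from 16.2 ± 4.19 to 37.2 ± 4.47 CPM (1.30 ± 0.17 and 1.20 ± 0.21), and ALG13 rose by 0.83 ± 0.16. JOSD2 was not called after correction for the longest transcript (0.28, adjusted p = 0.294) and was called with the median length (0.84, adjusted p = 0.00742). The falls with the smallest adjusted p were those of ovarian tumour class genes, a class that went both ways. Its members OTUD5 and OTUB1 were called higher (0.76 ± 0.16 and 0.49 ± 0.16, with −0.05 and −0.31 under library size alone). ZRANB1 fell from 49.1 ± 2.65 to 20.7 ± 1.77 CPM, OTUD3 from 19.3 ± 2.92 to 6.90 ± 0.959 CPM and OTUD1 from 13.4 ± 4.65 to 3.03 ± 0.736 CPM (log2 −1.25 ± 0.15, −1.48 ± 0.21 and −2.15 ± 0.33). CYLD, named after its values were seen, which has a catalytic domain of the ubiquitin-specific protease type without the name, rose from 14.2 ± 1.998 to 26.6 ± 10.9 CPM (adjusted p = 0.016). With library size alone, 1 of the 34 rose and 20 fell.

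Of 21 tested genes for partners, regulators or substrates of these proteases, 5 rose and 10 fell, against 27.2% and 28.9% of all genes, with a median of −0.53 against −0.04. WDR48, ATXN7L3, ENY2 and MDM2 are named for their ties to members described above. WDR48, which encodes the activator UAF1, fell from 37.8 ± 2.47 to 21.7 ± 2.30 CPM (−0.80 ± 0.16, adjusted p = 0.00182), and ATXN7L3, an adaptor of USP22 in SAGA, fell by 0.72 ± 0.14 (adjusted p = 0.00147). ENY2, another part of that module, rose from 28.4 ± 4.22 to 41.8 ± 5.54 CPM (0.55 ± 0.18, adjusted p = 0.0219, and −0.24 with library size alone), and was not called after correction for median length (0.18, adjusted p = 0.403). ATXN7 stands on 2 rows under 1 symbol and was left out. G3BP1, bound by USP10, fell from 252 ± 31.3 to 107 ± 20.8 CPM (−1.24 ± 0.17, adjusted p = 0.000247), with −0.42 (adjusted p = 0.14) after correction for the longest transcript and −1.60 (adjusted p = 7.63e-05) for the median length. ISG15 and its ligase gene HERC5 rose by 0.79 ± 0.17 and 0.76 ± 0.19, with −0.01 and −0.04 under library size alone. ISG15 was also not called after correction for the longest transcript (−0.29, adjusted p = 0.192), while with the median length it was called (0.45, adjusted p = 0.0437). UBE2L6 and UBA7 of the same list, which also serve ISG15 conjugation, were not called (0.05 ± 0.21 and 0.815 ± 0.616). UBA7 averaged 0.601 CPM without and 1.065 CPM with curcumin. MDM2 fell from 105 ± 11.2 to 46.9 ± 15.1 CPM (−1.16 ± 0.22, adjusted p = 0.00136), with −0.34 (adjusted p = 0.168) after correction for the longest transcript and −1.54 (adjusted p = 0.000279) for the median length. SMURF2 and DTX3L fell (−1.19 ± 0.15 and −1.30 ± 0.24).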

How the data were processed

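Gene-level values are estimated counts, many of them not whole, as the authors deposited them, unscaled between libraries. The sources used here do not give the aligner, counting tool, annotation or use of strand. Mouse builds (GRCm38, mm10) appear in the submitters' processing notes, while all 35106 rows carry human Ensembl identifiers, 35003 of which were found in GENCODE 29 (GRCh38), the source of positions and transcript lengths. Without strand, reads of a gene and of an overlapping one cannot be told apart: 23 members have an annotated gene on the opposite strand, among them USP39 and USP22.

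Counts were rounded to whole numbers, passed through filterByExpr (at least 10 counts, 15 in total) and TMM scaling, and compared between curcumin and untreated by the quasi-likelihood test of edgeR 4.0.16 (R 4.3.3), with a Benjamini-Hochberg adjusted p under 0.05 over all genes as the call. Alternatives used DESeq2 1.42.0, limma 3.58.1 (voom) and other settings, the length trend being removed by loess (span 0.3). The members and gene lists were chosen with earlier results of these data known. Per-library values are given for the 6 largest called rises and falls of at least 5 CPM on average and for genes chosen from knowledge of the family, and of the other deubiquitinases and partner genes the 3 with the smallest adjusted p in each direction are named, except 1 that is not reported here; further genes were chosen after their values were seen. In tests on simulated data for this comparison (13496 genes), 49 of 97 genes changed 2-fold were called, as were 76 of 93 changed 4-fold. Of 13306 unchanged genes, 6 were called. Most genes were thus unchanged there, while 56.1% of all genes tested were called in the measured libraries. How often genes are called with so many differing was not tested.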

Additional observations from a re-analysis of the deposited data

How the results depend on the processing

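Of the 6 members called higher and 20 called lower, 1 and 8 were called so in each of 17 alternatives at the same threshold, USP18 among them. A minimum fold of 2 left 3 members higher and 5 lower, 2244 and 2386 of all genes (4630 together), 2 other deubiquitinases higher and 9 lower, and 0 partner genes higher and 5 lower. Library size alone gave 1 and 35 members, 1320 and 7744 genes, 1 and 20 other deubiquitinases and 0 partner genes higher. Dropping the 100 most abundant genes from the library size left 3 members, 3 other deubiquitinases and 1 partner gene higher. With the length trend removed there were 11 members higher and 9 lower, 7 other deubiquitinases lower and 6 partner genes lower. With the trend in median transcript length removed, a setting chosen after seeing the data, 6 other deubiquitinases were higher and 6 lower. The causes were not tested. The sign of a called member turned for USP7 (0.037), USP8 (0.299) and USP24 (0.222) with the length trend removed, for USP47 (0.036) and USP24 (0.065) with the trend in median length removed, and for USP16 (−0.086) and USP48 (−0.394) with library size alone.

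Leaving out each library in turn gave 4 to 7 members higher and 17 to 20 lower, and 3253 to 3843 and 3369 to 4306 of all genes. With the replicate number as a block, 7 were higher and 20 lower, and USP5 was the member whose call changed. Same-numbered libraries did not deviate together (correlations of 0.04, 0.02 and 0.11 over genes), so the numbers were not taken to pair the samples. At 3 libraries a group, a log2 fold change near 0.4, as of USP7 and USP48, is close to the limit of what the test called.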
